A study of Homo sapiens with 15 samples.

Results

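SPARC and 7 further genes of secreted matricellular proteins (SPOCK1, THBS1, THBS2, POSTN, SPP1, CCN1 and CCN2) were examined for active histone marks in MDA-MB-231 breast cancer cells and their metastatic sub-populations. The members of the group were the H3K4me3 peaks within 2 kb of a GENCODE transcription start of the 8 genes and the H3K27ac peaks within 100 kb whose nearest protein-coding start belonged to one of them. The rule took 5 peaks out of 22572 for H3K4me3 and 41 out of 62195 for H3K27ac. The group was selected on measured H3K4me3, namely the higher level of SPARC in LM2 than in Par, so for SPARC values are given as a description with no test, and it is left out of every count of called peaks. The other 7 genes were tested in fits over all peaks of a mark. They too were chosen with earlier results of these data known. Counts of calls among them are therefore a description and not the rate of an unbiased set.

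ChIP-seq had been carried out in 3 lines. Par is the parental MDA-MB-231 line, a human claudin-low breast cancer line. LM2 and BrM2 are sub-populations of it that were selected in mice for colonization of lung and of brain, respectively, so that each is a single derived line. All 3 were grown as monolayers in medium with 10% serum for 3 days, without a further treatment, and each had 2 biological replicates per mark. H3K4me3 libraries held 3489607 to 9839629 counts in peaks and H3K27ac libraries 1994996 to 6450028, the lowest being BrM2 replicate 2. Levels are given below as CPM (counts in a peak, scaled to 1000000 counts in all peaks of a library), and log2 fold changes with the standard error of the DESeq2 fit. The mesenchymal genes VIM, ZEB1, FN1, CD44, AXL and CAV1 (6 of 6) had both marks at their starts, with a summed H3K4me3 of 941 to 1096 CPM in Par, 848 to 980 CPM in LM2 and 959 to 1127 CPM in BrM2. Within this sum CAV1 was at 171 to 207 CPM in Par, 85.8 to 138 CPM in LM2 and 101 to 137 CPM in BrM2. ZEB1 was at 243 to 262 CPM in Par and 205 to 208 CPM in BrM2. AXL went the other way, from 140 to 219 CPM in Par to 227 to 329 CPM in BrM2. Of 4 markers of other cell types the leukocyte gene PTPRC and the endothelial gene PECAM1 had no start peak of either mark, and the H3K4me3 of the other two (GFAP and SFTPC) summed to 2.75 to 11.1 CPM, although H3K27ac near the GFAP start was 89.2 to 181 CPM. Luminal genes (7 of 7 with H3K4me3) summed to 220 to 250 CPM in Par, 208 to 234 CPM in LM2 and 317 to 341 CPM in BrM2. Single luminal genes differed more than their sum, and in LM2 in both directions. ESR1 was at 6.88 to 7.15 CPM in Par, 38.3 to 39.5 CPM in LM2 and 20.2 to 24.2 CPM in BrM2. FOXA1 was at 22.1 to 29.2 CPM in Par and 46.1 to 60.1 CPM in LM2, whereas KRT19 was at 116 to 131 CPM in Par and 52.2 to 67.5 CPM in LM2, and PGR at 7.74 to 9.38 CPM in Par and 1.15 to 5.29 CPM in LM2. In BrM2 FOXA1 (68.65 to 75.52 CPM) and PGR (18.77 to 20.45 CPM) were above both other lines, and KRT19 (95.79 to 126.6 CPM) overlapped Par. EPCAM was at 36.39 to 42.0 CPM in Par, 43.38 to 51.53 CPM in LM2 and 71.13 to 72.46 CPM in BrM2. The part of such differences in the results was not tested. In such bulk samples, more marked cells and more mark per cell cannot be told apart.

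Matricellular proteins are secreted into the extracellular matrix, where they act less as structural parts than as signals to cells through integrins, CD44, CD47 and other receptors. Several of them, SPARC among them, are known from studies of metastasis to lung and bone. H3K4me3 marks active promoters, whereas H3K27ac marks both active promoters and active enhancers.

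The promoters of 4 of the genes are shown first, because the marks at these genes differed in kind. Among the 5 genes with an H3K4me3 start peak, SPARC had the one with the largest fold change between the lines, THBS1 and CCN2 have start peaks of both marks with at least 37.7 CPM in every library, and POSTN has no start peak of either mark. The sequences are the 250 bases upstream of the RefSeq start, 5′ to 3′, from the promoter table of GRCh38.p14. Each matched once on the gene's strand of its own chromosome in hg19 (GRCh37), and other chromosomes were not searched. The positions in hg19 are chr5:151066477-151066726 on the minus strand for SPARC, chr15:39873030-39873279 on the plus strand for THBS1, chr6:132272513-132272762 on the minus strand for CCN2 and chr13:38172906-38173155 on the minus strand for POSTN. Capitals mark the letters GGAATG or CATTCC (the core of the site read by TEAD factors, the DNA-binding partners of YAP, on either strand) and TATAAA or TTTATA (the TATA box on either strand).
SPARC: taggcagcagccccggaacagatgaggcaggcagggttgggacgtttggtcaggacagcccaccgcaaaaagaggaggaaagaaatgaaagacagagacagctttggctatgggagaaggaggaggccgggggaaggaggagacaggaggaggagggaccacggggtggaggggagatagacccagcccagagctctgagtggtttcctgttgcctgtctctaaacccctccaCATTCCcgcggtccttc
THBS1: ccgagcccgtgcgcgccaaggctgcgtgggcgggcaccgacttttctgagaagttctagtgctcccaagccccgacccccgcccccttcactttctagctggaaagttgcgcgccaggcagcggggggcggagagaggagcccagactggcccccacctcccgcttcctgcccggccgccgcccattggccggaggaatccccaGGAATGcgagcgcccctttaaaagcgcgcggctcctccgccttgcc
CCN2: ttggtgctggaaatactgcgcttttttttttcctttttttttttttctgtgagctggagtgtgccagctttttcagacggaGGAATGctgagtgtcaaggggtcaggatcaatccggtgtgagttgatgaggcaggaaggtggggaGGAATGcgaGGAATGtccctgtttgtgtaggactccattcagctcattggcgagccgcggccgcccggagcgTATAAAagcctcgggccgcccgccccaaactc
POSTN: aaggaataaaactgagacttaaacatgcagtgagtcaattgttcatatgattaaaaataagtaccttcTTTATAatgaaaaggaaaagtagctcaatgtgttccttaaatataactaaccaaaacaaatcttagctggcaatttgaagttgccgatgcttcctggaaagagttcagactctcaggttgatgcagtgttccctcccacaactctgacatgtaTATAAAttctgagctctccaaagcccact
CCN2, one of the best-known targets of YAP and TEAD, held 3 TEAD matches, at 169, 104 and 95 bases before the start, and a TATA box 32 bases before it. At least 1 TEAD match was found in 11.9% of 35116 promoters of the same length, and 3 or more in 0.0826%. SPARC and THBS1 held 1 each, at 17 and 46 bases before the start, and THBS2 (not printed) held 2. POSTN and SPP1 held none, and POSTN held 2 TATA boxes, which 2.05% of promoters have. CpG dinucleotides, which are frequent in promoters of broadly active genes, numbered 24 in THBS1, 13 in CCN2, 12 in THBS2, 7 in SPARC, 3 in SPP1 and 1 in POSTN, against a median of 11 over all promoters. The windows of SPARC, THBS1 and CCN2 lay inside a peak of both marks, while those of THBS2, POSTN and SPP1 lay in no peak of either. Matches to these letters are a description and no proof of binding. SPOCK1 and CCN1 had no entry in the promoter table.

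SPARC encodes a collagen-binding glycoprotein of the matrix that is made in large amounts by fibroblasts and other mesenchymal cells. Its H3K4me3 peak (hg19, chr5:151064325-151066794) lies over the transcription start and the first part of the gene. This peak held 1 and 10 counts in the Par libraries, 143 and 553 in LM2, and 30 and 81 in BrM2. Scaled by depth, Par stood at 0.287 and 1.49 CPM, LM2 at 32.8 and 56.2 CPM and BrM2 at 6.55 and 10.0 CPM. All 6 values fell in the order Par, BrM2, LM2 with no overlap between the lines. The log2 fold change was 5.50 ± 0.61 for LM2 over Par, 3.00 ± 0.63 for BrM2 over Par and -2.50 ± 0.44 for BrM2 over LM2. Without Par replicate 2 the Par level rests on 1 count, and the log2 fold changes over Par became 7.13 for LM2 and 4.63 for BrM2.

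Per kb of peak, SPARC stood at 0.359 CPM in Par, 18.0 in LM2 and 3.36 in BrM2. Among 13369 H3K4me3 peaks at protein-coding starts this placed SPARC at the 0.539th percentile in Par, the 36.3rd in LM2 and the 6.05th in BrM2. The start was thus nearly free of H3K4me3 in Par, and in LM2 it had the level of a moderately marked promoter, not of a strong one. Of 35 other H3K4me3 peaks within 2.5 Mb, 0 had a log2 fold change as high as that of SPARC in LM2 and 1 in BrM2, and their median log2 fold change over Par was 0.09 (LM2) and 0.06 (BrM2).

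**Figure D1:**
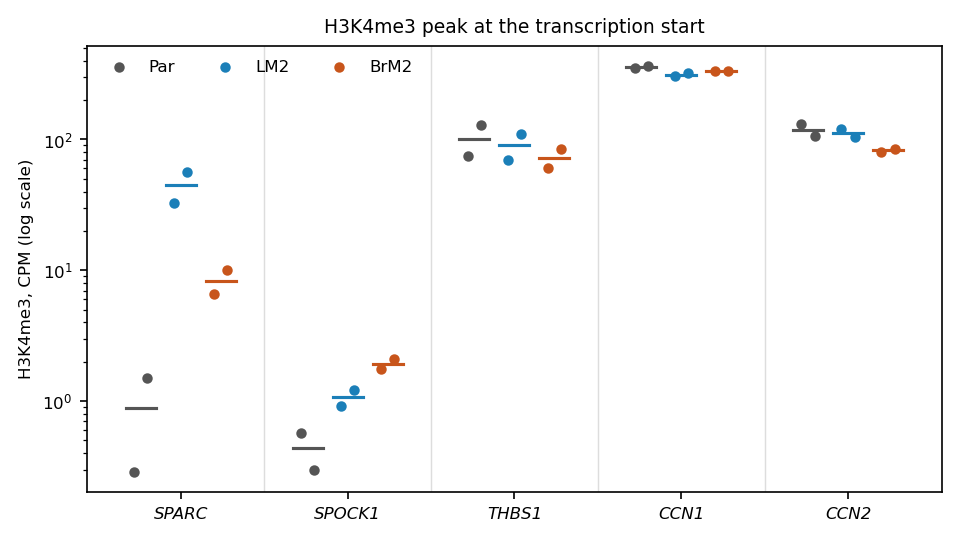
H3K4me3 in CPM (log axis) of the peak at the transcription start of the 5 genes that have one, with 1 point per library and a bar at the mean of the 2 replicates. SPARC spans 0.287 to 56.2 CPM and separates the 3 lines, SPOCK1 stays at or below 2.11 CPM, and THBS1, CCN1 and CCN2 lie at 60.5 CPM or above in every library.

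H3K27ac at SPARC had another pattern. The peak over the start (chr5:151062551-151068639) was already at 44.0 and 58.7 CPM in Par, with 51.6 and 69.1 CPM in LM2 and 30.8 and 43.1 CPM in BrM2. Values of LM2 and Par overlapped, and both BrM2 libraries lay below both of Par. Its log2 fold change was 0.17 ± 0.32 for LM2 over Par and -0.49 ± 0.33 for BrM2 over Par. Among 15173 H3K27ac peaks at protein-coding starts, it stood per kb at the 54.7th percentile in Par, the 67.1st in LM2 and the 35.3rd in BrM2. In Par the same start was therefore in the lowest hundredth of start peaks for H3K4me3 and near the middle of start peaks for H3K27ac.

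SPARC had 10 H3K27ac peaks with a summed length of 39.1 kb, the first at the end of the gene and the last beginning 30.7 kb upstream of the start. Their sum was 252 ± 21.8 CPM in Par, 294 ± 5.43 in LM2 and 180 ± 13.2 in BrM2 (mean ± SD, n = 2 libraries). The highest was an intergenic peak 6.16 kb upstream (chr5:151072686-151082008). It held 99.0 and 102 CPM in Par, 132 and 102 CPM in LM2, and 65.3 and 62.2 CPM in BrM2. In BrM2 its log2 fold change was -0.65 ± 0.27 over Par and -0.81 ± 0.27 over LM2. The largest change was at a small peak 3.97 kb upstream (chr5:151070503-151071728), at 3.19 and 4.18 CPM in Par, 4.03 and 4.79 CPM in LM2, and 1.53 and 0.501 CPM in BrM2. There BrM2 over Par gave a log2 fold change of -1.71 ± 0.90 and LM2 over Par one of 0.19 ± 0.73, and the former became -2.86 without BrM2 replicate 1. In LM2 9 of the 10 peaks had a log2 fold change above 0, with a median of 0.16, and in BrM2 2 of 10, with a median of -0.52. The medians over all 62195 H3K27ac peaks were -0.02 in both comparisons. BrM2 thus had more H3K4me3 and less H3K27ac at SPARC than Par, while LM2 had much more H3K4me3 at nearly the same H3K27ac.

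**Figure D2:**
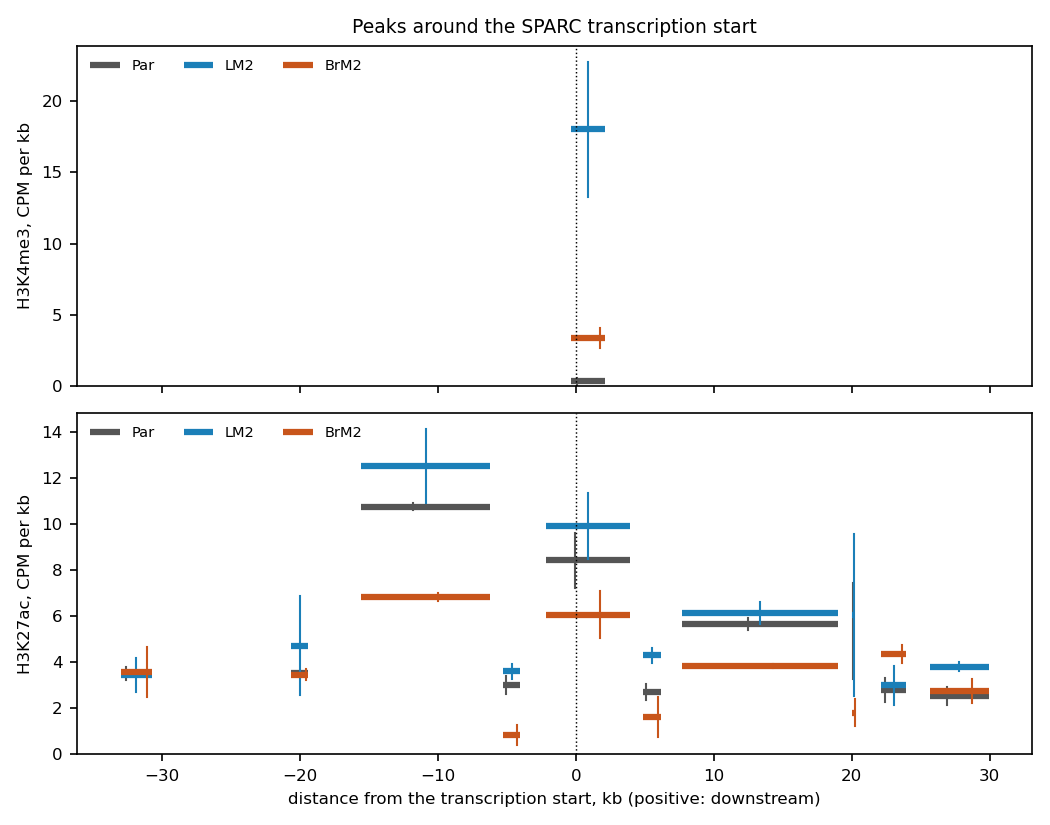
H3K4me3 (top) and H3K27ac (bottom) of the SPARC peaks in CPM per kb against the distance from the transcription start in kb, positive downstream. Thick bars span each peak at the mean of a line and thin vertical lines span its 2 replicates. H3K4me3 has 1 peak, at the start, where LM2 reaches 18.0 CPM per kb. H3K27ac covers 10 consensus peaks called on pooled libraries, with BrM2 lowest over the start and at the large upstream peak.

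SPOCK1 (testican-1), a proteoglycan of the SPARC family, had the smallest H3K4me3 peak of the group, 347 bases at its start (chr5:136834721-136835067). The Par libraries held 2 and 2 counts there, those of LM2 4 and 12, and those of BrM2 8 and 17. These counts correspond to 0.573 and 0.298 CPM, 0.918 and 1.22 CPM, and 1.75 and 2.11 CPM. The lines were ordered without overlap, yet at this depth the change did not pass the test. The log2 fold change was 1.40 ± 1.26 for LM2 (DESeq2 adjusted p = 1.0) and 2.16 ± 1.23 for BrM2 (DESeq2 adjusted p = 0.591), both over Par.

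All 3 H3K27ac peaks of SPOCK1 lay inside its annotated gene, 73.2 to 82.4 kb from the nearest protein-coding start, and overlapped no protein-coding exon. They were higher in both LM2 and both BrM2 libraries than in Par. The first of them (chr5:136750704-136751876) lay downstream of that start, and the other peaks lay upstream of it. The first had 1.14 and 0.261 CPM in Par, 3.57 and 7.45 CPM in LM2, and 3.57 and 4.01 CPM in BrM2. It rose in LM2 by a log2 fold change of 2.86 ± 0.91 (DESeq2 adjusted p = 0.0478). In BrM2 the log2 fold change was 2.39 ± 0.94 (DESeq2 adjusted p = 0.131), and BrM2 and LM2 overlapped. A second peak (chr5:136908258-136909626) had 0.684 and 1.31 CPM in Par, 3.57 and 7.18 CPM in LM2, and 3.31 and 9.52 CPM in BrM2. It rose in BrM2, by 2.66 ± 0.85 (DESeq2 adjusted p = 0.0384), and its value in LM2 was 2.37 ± 0.84 (DESeq2 adjusted p = 0.0957). The third had at most 15 counts in any library and log2 fold changes of 2.41 ± 1.21 in LM2, where no adjusted p was given, and 3.37 ± 1.21 in BrM2 (DESeq2 adjusted p = 0.0802). Summed over the 3 peaks, H3K27ac was 2.04 ± 0.67 CPM in Par, 12.8 ± 4.78 in LM2 and 14.0 ± 6.45 in BrM2 (mean ± SD, n = 2 libraries). Of 105 other H3K27ac peaks within 2.5 Mb of the first peak, 2 were as high in LM2, and their median log2 fold change was 0.07. Both calls rest on few counts. The call of the first peak in LM2 was lost with size factors estimated within each chromosome (DESeq2 adjusted p = 0.061), without LM2 replicate 1 (0.224) and without BrM2 replicate 1 (0.123) or 2 (0.105), and the other 3 fits that left out a library gave it no adjusted p. Leaving out Par replicate 1 raised its log2 fold change to 4.32, and leaving out Par replicate 2 lowered it to 2.20. The call of the second peak in BrM2 was lost without any 1 of the 6 libraries (DESeq2 adjusted p from 0.0876 to 0.666), with a log2 fold change of 1.76 without BrM2 replicate 2.

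THBS1 (thrombospondin-1), a trimeric glycoprotein that binds CD47 and CD36 and activates latent TGF-β, had 1 H3K4me3 peak and 1 large H3K27ac peak over its start. H3K4me3 (chr15:39871382-39876703) was 75.4 and 128 CPM in Par, 70.2 and 111 CPM in LM2, and 60.5 and 84.3 CPM in BrM2. The replicates differed more than the lines, and all lines overlapped. Log2 fold changes were -0.14 for LM2 over Par (95% interval -0.78 to 0.51) and -0.54 for BrM2 over Par (95% interval -1.19 to 0.11), neither past the test (DESeq2 adjusted p = 1.0 and 0.664). With the replicate number as a block, BrM2 was lower, with log2 fold changes of -0.54 ± 0.14 over Par (DESeq2 adjusted p = 0.0014) and -0.40 ± 0.14 over LM2 (DESeq2 adjusted p = 0.0206). H3K27ac at the start (chr15:39870819-39876050) was 53.4 and 60.6 CPM in Par, 49.2 and 63.0 CPM in LM2, and 37.7 and 46.6 CPM in BrM2. Both BrM2 libraries were below all others, but the log2 fold change over Par of -0.44 ± 0.31 did not pass the test (DESeq2 adjusted p = 0.553). The 3 other THBS1 peaks lay upstream at 0.501 to 3.99 CPM in every library, and the largest change among peaks with enough counts was -0.50 ± 0.83 in BrM2, 69.1 kb upstream (chr15:39803333-39804204).

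THBS2 (thrombospondin-2), an anti-angiogenic relative of THBS1, had no start peak of either mark, and its 11 H3K27ac peaks lay between 34.1 and 86.4 kb from a start, on both sides. They held the clearest changes among the tested genes. The largest, an intergenic domain of 10231 bases 75.3 kb downstream (chr6:169565368-169575598), had 32.4 and 49.3 CPM in Par, 83.3 and 93.9 CPM in LM2, and 79.8 and 90.2 CPM in BrM2. All 4 libraries of LM2 and BrM2 were above both of Par. It rose by 1.05 ± 0.30 in LM2 (DESeq2 adjusted p = 0.0178) and by 1.06 ± 0.30 in BrM2 (DESeq2 adjusted p = 0.0146). LM2 and BrM2 differed there by 0.01 ± 0.30 (95% interval -0.58 to 0.59).

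A peak 36.1 kb upstream of THBS2 (chr6:169690221-169694677) was higher in LM2 than in the other lines. Its levels were 10.7 and 5.48 CPM in Par, 30.9 and 23.9 CPM in LM2, and 12.7 and 10.0 CPM in BrM2. It rose in LM2 over Par by 1.69 ± 0.43 (DESeq2 adjusted p = 0.0055), with both LM2 libraries above all others, and BrM2 stood at 0.50 ± 0.46 over Par (DESeq2 adjusted p = 0.701). BrM2 against LM2 gave -1.19 ± 0.43 (DESeq2 adjusted p = 0.12), and with the replicate block -1.21 ± 0.39 (DESeq2 adjusted p = 0.0371). The peak nearest to the start, 34.1 kb upstream (chr6:169688200-169688905), was small, with 0.228 and 2.35 CPM in Par, 3.26 and 5.59 CPM in LM2, and 1.27 and 2.01 CPM in BrM2 (LM2 over Par 1.73 ± 0.94, DESeq2 adjusted p = 0.453). That value depended on the Par libraries, being 0.83 when replicate 1 was left out and 4.21 when replicate 2 was.

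Over all 11 THBS2 peaks the sum was 103 ± 14.5 CPM in Par, 218 ± 13.5 in LM2 and 168 ± 15.9 in BrM2 (mean ± SD, n = 2 libraries). In LM2 10 of the 11 peaks had a log2 fold change above 0, with a median of 1.01, and in BrM2 8 of 11, with a median of 0.33. Other H3K27ac peaks around THBS2 had medians below 0. For 49 within 2.5 Mb of the downstream domain the median log2 fold changes were -0.57 (LM2) and -0.50 (BrM2), and 6 of them in LM2 and 3 in BrM2 were as high as the domain. Of 47 around the upstream peak 3 were as high in LM2. Leaving out 1 library at a time, the call of the downstream domain in LM2 was lost without Par replicate 1 (log2 fold change 0.78), LM2 replicate 1 (1.16), LM2 replicate 2 (0.95) or BrM2 replicate 1 (1.06). In BrM2 it was lost without Par replicate 1 (0.78), BrM2 replicate 1 (1.16) or BrM2 replicate 2 (0.97). That of the upstream peak in LM2 was lost without Par replicate 2 (1.29), LM2 replicate 1 (1.52) or LM2 replicate 2 (1.84), where a line is left with a single library that is assumed to vary like the others.

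**Figure D3:**
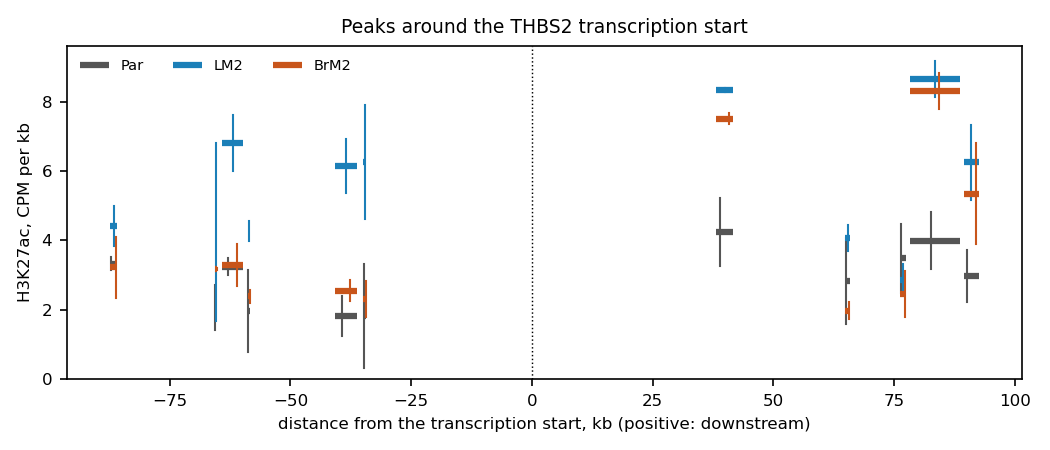
H3K27ac of the 11 THBS2 peaks in CPM per kb against the distance from the transcription start in kb, positive downstream, with thick bars at the mean of a line and thin vertical lines over its 2 replicates. No peak lies at the start, LM2 and BrM2 are both above Par at the domain furthest right but one, and at the upstream peak of 4457 bases LM2 lies above both Par and BrM2.

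POSTN (periostin), an integrin ligand of fibrous stroma, had no start peak of either mark and 4 H3K27ac peaks 17.2 to 64.1 kb from its start. The nearest and highest was intergenic, 17.2 kb upstream (chr13:38190160-38193767). It had 16.2 and 12.3 CPM in Par, 27.8 and 24.7 CPM in LM2, and 25.2 and 25.6 CPM in BrM2. Both sub-populations lay above Par in both libraries, with log2 fold changes of 0.82 ± 0.36 in LM2 (DESeq2 adjusted p = 0.248) and 0.83 ± 0.37 in BrM2 (DESeq2 adjusted p = 0.201), which did not pass the test. Around it, 35 other H3K27ac peaks had median log2 fold changes of 0.70 (LM2) and 0.26 (BrM2), and 16 of them in LM2 and 9 in BrM2 were at least as high. With size factors estimated within each chromosome the value in LM2 was 0.20 and that in BrM2 0.73. A second peak, in an intron of the neighbouring gene TRPC4 (chr13:38229694-38231462), had 7.98 and 3.39 CPM in Par, 11.2 and 14.4 CPM in LM2, and 6.37 and 8.52 CPM in BrM2. Its change over Par, as log2, was 1.09 ± 0.53 for LM2 (DESeq2 adjusted p = 0.343) and 0.36 ± 0.56 for BrM2 (DESeq2 adjusted p = 0.866). Without Par replicate 1 these values were 1.84 and 1.12, and without Par replicate 2 they were 0.61 and -0.12, so that the direction in BrM2 rests on 1 Par library.

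SPP1 (osteopontin), a phosphoprotein ligand of integrins and CD44, had a single H3K27ac peak, intergenic and 24.5 kb upstream (chr4:88871156-88872315), and no start peak. It held 4.33 and 3.65 CPM in Par, 2.64 and 2.93 CPM in LM2, and 2.29 and 2.01 CPM in BrM2. The lines were ordered without overlap, but with 4 to 19 counts per library the log2 fold changes of -0.59 ± 0.73 in LM2 and -0.88 ± 0.79 in BrM2 over Par did not pass the test (DESeq2 adjusted p = 0.887 and 0.693).

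CCN1 (CYR61) and CCN2 (CTGF) are integrin-binding proteins whose genes respond quickly to serum and to YAP. CCN1 had the strongest marks of the group. Its H3K4me3 peak of 9152 bases (chr1:86041520-86050671), which also holds a start of DDAH1, had 349 and 366 CPM in Par, 305 and 322 CPM in LM2, and 337 and 333 CPM in BrM2. Log2 fold changes over Par were -0.16 in both LM2 and BrM2 (95% intervals -0.75 to 0.44), with DESeq2 adjusted p = 1.0 and 0.996. H3K27ac over the CCN1 start (chr1:86040118-86052209) was 250 and 274 CPM in Par, 186 and 266 CPM in LM2, and 214 and 238 CPM in BrM2, with log2 fold changes of -0.28 ± 0.27 and -0.21 ± 0.27 (DESeq2 adjusted p = 0.826 and 0.825).

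Downstream of CCN1, 2 intergenic H3K27ac peaks were higher in BrM2 than in LM2 when the replicate number was a block, and not without it. The larger, of 16173 bases and 20.8 kb downstream (chr1:86067213-86083385), had 165 and 139 CPM in Par, 118 and 141 CPM in LM2, and 204 and 191 CPM in BrM2. Both BrM2 libraries were above all others. BrM2 over LM2 was 0.68 ± 0.26 (DESeq2 adjusted p = 0.141), and with the replicate block 0.68 ± 0.20 (DESeq2 adjusted p = 0.0169). At 45.9 kb downstream (chr1:86092393-86097386) the levels were 72.5 and 72.8 CPM in Par, 62.2 and 59.3 CPM in LM2, and 99.4 and 95.7 CPM in BrM2. There BrM2 over LM2 was 0.75 ± 0.26 (DESeq2 adjusted p = 0.0959), and with the replicate block 0.75 ± 0.21 (DESeq2 adjusted p = 0.0118). At 2 further peaks both BrM2 libraries lay above both LM2 libraries without passing the test in either fit. The first, 15.1 kb downstream (chr1:86061509-86066138), had 19.8 and 23.0 CPM in Par, 16.4 and 14.9 CPM in LM2, and 25.2 and 25.6 CPM in BrM2 (BrM2 over LM2 0.76 ± 0.36, DESeq2 adjusted p = 0.311, and 0.178 with the block). The second, 39.9 kb downstream (chr1:86086342-86090376), had 21.9 and 14.4 CPM in Par, 20.8 and 19.2 CPM in LM2, and 25.5 and 26.1 CPM in BrM2 (BrM2 over LM2 0.43 ± 0.37, DESeq2 adjusted p = 0.716, and 0.572 with the block). Against Par, none of these 4 peaks passed the test in either sub-population by DESeq2.

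CCN2 had 1 peak of each mark, both over its start. H3K4me3 (chr6:132269498-132272839) was 132 and 106 CPM in Par, 120 and 104 CPM in LM2, and 80.5 and 84.3 CPM in BrM2. Both BrM2 libraries were below all others, and LM2 overlapped Par. Log2 fold changes were -0.06 for LM2 over Par (95% interval -0.75 to 0.63), -0.61 for BrM2 over Par (-1.30 to 0.08) and -0.55 for BrM2 over LM2 (-1.24 to 0.14), none past the test (DESeq2 adjusted p = 1.0, 0.608 and 0.66). With the replicate block BrM2 was lower, with log2 fold changes of -0.57 ± 0.14 over Par (DESeq2 adjusted p = 0.0006) and -0.52 ± 0.14 over LM2 (DESeq2 adjusted p = 0.0016). H3K27ac (chr6:132268967-132277071) was 79.6 and 90.1 CPM in Par, 59.4 and 77.7 CPM in LM2, and 51.5 and 65.2 CPM in BrM2. Both sub-populations lay below Par, with log2 fold changes of -0.37 ± 0.29 in LM2 and -0.55 ± 0.29 in BrM2 that did not pass the test (DESeq2 adjusted p = 0.723 and 0.361).

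For H3K4me3, 0 of the 4 tested start peaks (SPOCK1, THBS1, CCN1 and CCN2) were called by DESeq2 in any comparison, and 0 had an unadjusted p under 0.05. Over all peaks 2.51% were called for LM2 over Par, 3.61% for BrM2 over Par and 3.18% for BrM2 against LM2. edgeR, which called 1.61%, 3.07% and 2.81% of all peaks in the 3 comparisons, also called 0 of the 4, with 1 at an unadjusted p under 0.05 for BrM2 over Par. With the replicate block DESeq2 called 0, 2 and 2 peaks in the 3 comparisons, those of THBS1 and CCN2 and all lower in BrM2, while this fit called 14.4%, 17.7% and 22.0% of all peaks in the 3 comparisons, 9.11% lower for BrM2 over Par and 13.0% lower for BrM2 against LM2. edgeR with the block called 1, 4 and 2 of the 4 and 26.2%, 33.3% and 38.6% of all peaks.

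For H3K27ac, 31 peaks of the 7 tested genes entered, of which 22 were given an adjusted p for LM2 over Par, 23 for BrM2 over Par and 21 for BrM2 against LM2. In LM2 3 were called higher and 0 lower, where 3.63% of all peaks were called and 2.72% called higher. In BrM2 2 were called higher and 0 lower, where 5.29% were called and 3.62% called higher. edgeR called 4 and 3, where it called 5.14% and 6.88% of all peaks. Between BrM2 and LM2 DESeq2 and edgeR both called 0, with 5 and 6 at an unadjusted p under 0.05, and 2.94% of all peaks were called by DESeq2 and 3.89% by edgeR. With the replicate block DESeq2 called 3 of them between BrM2 and LM2, 2 higher in BrM2 (CCN1) and 1 lower (THBS2), where 6.17% of all peaks were called, and 3 and 2 over Par, as without it, where it called 5.44% and 8.13%. edgeR with the block called 10, 7 and 5 of the 31, where it called 13.2%, 15.9% and 12.5% of all peaks. In 15 of the 31 peaks both LM2 libraries lay above both Par libraries, and in 4 below, against 24.7% and 18.3% of all peaks. In BrM2 12 lay above and 7 below, against 24.8% and 25.6% of all peaks. For the 31 peaks the median log2 fold changes over Par were 0.36 (LM2) and 0.29 (BrM2), where those over all peaks were -0.02. THBS2 gave 11 of the 31 peaks, and the genes differed in direction. By gene, the LM2 medians were 2.41 (SPOCK1), 1.01 (THBS2) and 0.84 (POSTN). They were -0.24 (THBS1), -0.29 (CCN1), -0.37 (CCN2) and -0.59 (SPP1) at the other genes. In BrM2 they were 2.66 (SPOCK1), 0.60 (POSTN), 0.33 (THBS2), 0.25 (CCN1), -0.47 (THBS1), -0.55 (CCN2) and -0.88 (SPP1). The peaks that DESeq2 called over Par without the block belong to SPOCK1 and THBS2, and all lie over 30 kb from the start of these genes. Every H3K27ac peak of these genes lies that far out, called or not, so the distance says nothing about the calls.

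**Figure D4:**
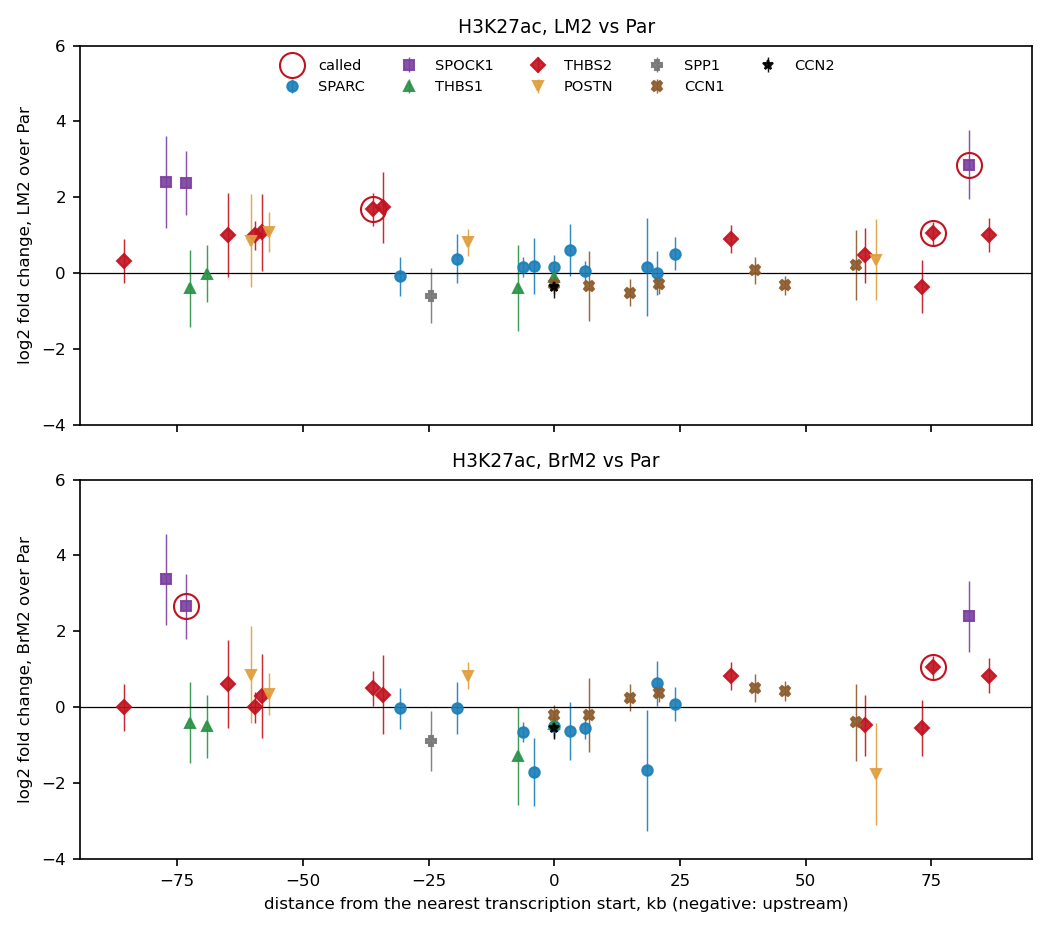
Log2 fold change of H3K27ac over Par (top LM2, bottom BrM2) for all 41 peaks of the 8 genes against the distance from the nearest start of the gene in kb, negative upstream, with standard errors as vertical lines and red circles around the peaks called by DESeq2. Circled peaks belong to SPOCK1 and THBS2, all of whose peaks lie far from the start. The peaks at distance 0 belong to other genes (SPARC, THBS1, CCN1 and CCN2) and stay between -0.55 and 0.17.

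The order of the genes by H3K27ac also differed between the lines. Per kb of peak, Par had 12.4 CPM at CCN1, 10.5 at CCN2, 9.49 at THBS1, 6.46 at SPARC, 3.78 at POSTN, 3.44 at SPP1, 3.30 at THBS2 and 0.727 at SPOCK1. In Par CCN2 overlapped THBS1, and POSTN, SPP1 and THBS2 overlapped one another. LM2 had 10.7 CPM per kb at CCN1, 9.27 at THBS1, 8.45 at CCN2, 7.51 at SPARC, 7.23 at POSTN, 6.96 at THBS2, 4.58 at SPOCK1 and 2.40 at SPP1. There each of the first 4 genes overlapped the next, as did POSTN and THBS2. In BrM2 the levels were 13.5 CPM per kb at CCN1, 7.20 at CCN2, 6.94 at THBS1, 5.89 at POSTN, 5.38 at THBS2, 4.99 at SPOCK1, 4.60 at SPARC and 1.85 at SPP1. CCN2 overlapped THBS1 there, POSTN overlapped THBS2, and SPOCK1 overlapped each of these genes, so most of this order lies within the replicates. SPARC thus followed CCN1, CCN2 and THBS1 in Par and LM2, and in BrM2 only SPP1 was lower, with SPARC and SPOCK1 overlapping.

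**Figure D5:**
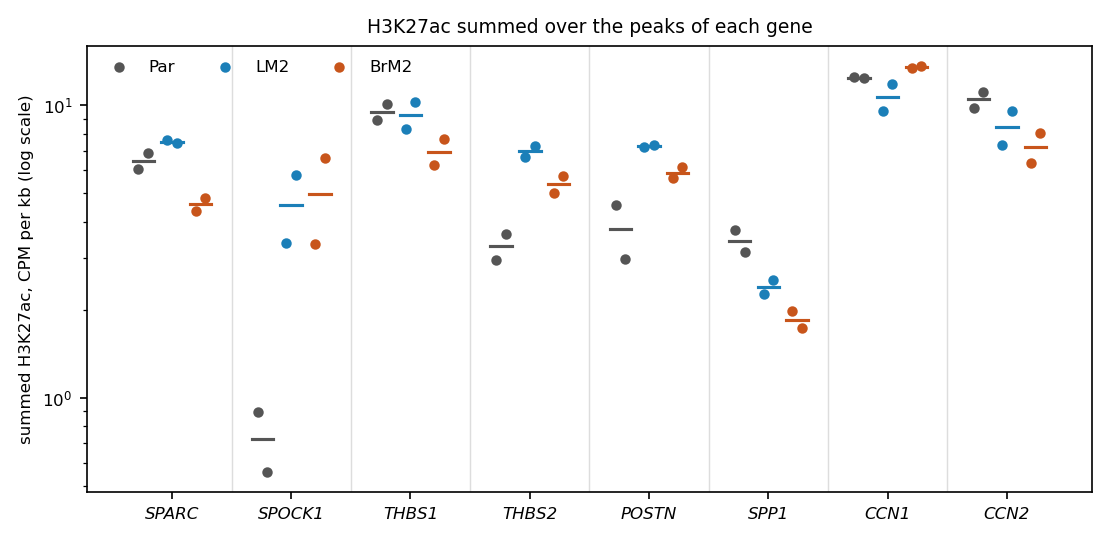
H3K27ac summed over the peaks of each gene, in CPM per kb of peak (log axis), with 1 point per library and a bar at the mean of the 2 replicates. CCN1 is highest in all 3 lines, SPOCK1 is lowest in Par, SPARC is lowest in BrM2 among its 3 lines, and THBS2, POSTN and SPOCK1 are higher in both sub-populations than in Par.

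Other matricellular genes (22 genes, such as tenascins, TGFBI and the remaining CCN and thrombospondin genes) had 8 H3K4me3 start peaks in 8 genes and 80 H3K27ac peaks in 15 genes. For H3K4me3 DESeq2 called 0 for LM2 or BrM2 over Par, with 2 at an unadjusted p under 0.05 in each, and edgeR also called 0, with 2 in each. Of all peaks, DESeq2 called 2.51% and 3.61% in these comparisons, and edgeR 1.61% and 3.07%. Between BrM2 and LM2 DESeq2 called 2, both lower in BrM2, where 1.13% of all peaks were called lower. One was TGFBI, an integrin-binding protein induced by TGF-β (chr5:135364221-135365527), with 17.8 and 16.5 CPM in Par, 44.1 and 35.8 CPM in LM2, and 8.29 and 5.33 CPM in BrM2. LM2 was above and BrM2 below Par in both libraries, and BrM2 over LM2 was -2.67 ± 0.45 (DESeq2 adjusted p = 6.85e-07). The other was CCN4, a matricellular target of Wnt signalling, with 0.287 and 0.447 CPM in Par, 3.44 and 4.78 CPM in LM2, and 0 and 0.62 CPM in BrM2 (-3.67 ± 1.14, DESeq2 adjusted p = 0.0444). Fold changes of CCN4 rest on few counts, since Par and BrM2 were near the floor there. edgeR called 1 of the 2 peaks. With the replicate block DESeq2 called 3 peaks higher in LM2 over Par, those of TGFBI (1.23 ± 0.26, DESeq2 adjusted p = 5.96e-05), CCN4 (3.62 ± 1.17, DESeq2 adjusted p = 0.0185) and CCN3 (0.65 ± 0.17, DESeq2 adjusted p = 0.0025), where 8.90% of all peaks were called higher. For BrM2 over Par the block, which called 8.55% of all peaks higher, called CCN3 higher (0.81 ± 0.17, DESeq2 adjusted p = 5.06e-05) and TGFBI lower (-1.45 ± 0.30, DESeq2 adjusted p = 2.97e-05). Between BrM2 and LM2 it called THBS3 lower as well (-0.45 ± 0.13, DESeq2 adjusted p = 0.005). SPARC and TGFBI thus shared the highest H3K4me3 in LM2, but BrM2 was above Par at SPARC and below Par at TGFBI. For H3K27ac DESeq2 called 0 of the 80 peaks for LM2 over Par, with 4 at an unadjusted p under 0.05, and edgeR called 2. Of all peaks, DESeq2 called 3.63% there and edgeR 5.14%. DESeq2 called 1 higher for BrM2 over Par and 3 higher for BrM2 against LM2, where 3.62% and 1.71% of all peaks were called higher. The first lay near CCN5, and the others near CCN5 (1) and TNXB (2). Adding the block, DESeq2 called 2 higher for BrM2 over Par, both near CCN5, and between BrM2 and LM2 6 higher (2 near CCN5, 3 near TNXB and 1 near FSTL1) and 1 lower (near TNC), where this fit called 8.13% and 6.17% of all peaks in either direction.

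Receptors of matricellular proteins (ITGAV, ITGB1, ITGB3, ITGB5, ITGA5, CD36, CD44, CD47, LRP1 and STAB1) had 10 H3K4me3 peaks at the starts of 8 genes. DESeq2 and edgeR called 0 of them in any comparison, with 0 at an unadjusted p under 0.05. Of all H3K4me3 peaks, DESeq2 called 2.51% for LM2 over Par, 3.61% for BrM2 over Par and 3.18% for BrM2 against LM2. The shares for edgeR were 1.61%, 3.07% and 2.81%. With the replicate block DESeq2 called 1 lower for LM2 over Par, the integrin-associated receptor CD47 (-0.40, DESeq2 adjusted p = 0.0048), where 5.49% of all peaks were called lower. For BrM2 over Par it called 1 higher, the hyaluronan receptor CD44 (0.32, DESeq2 adjusted p = 0.04), and 3 lower, CD47 (-0.29), ITGB1 (-0.28) and ITGB5 (-0.31), where 8.55% of all peaks were called higher and 9.11% lower. ITGB1 and ITGB5 were also lower in BrM2 than in LM2 in that fit (-0.24 and -0.49), where 13.0% of all peaks were called lower. For H3K27ac, 0 of 88 receptor peaks were called by DESeq2 without the block, with 6, 6 and 3 at an unadjusted p under 0.05 in LM2 over Par, BrM2 over Par and BrM2 against LM2, and edgeR called 4, 1 and 2. Of all H3K27ac peaks, DESeq2 called 3.63%, 5.29% and 2.94% in these comparisons, and edgeR 5.14%, 6.88% and 3.89%. When the block was added, DESeq2 called 1 peak, 38189 bases from the start of CD47 (chr3:107848898-107853732), lower for LM2 over Par (-1.08 ± 0.31, DESeq2 adjusted p = 0.0158) and higher for BrM2 against LM2 (1.10 ± 0.32, DESeq2 adjusted p = 0.0148), where 5.44% and 6.17% of all peaks were called. It had 32.2 and 29.2 CPM in Par, 17.8 and 12.5 CPM in LM2, and 30.1 and 32.6 CPM in BrM2.

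To see which start peaks followed SPARC across the libraries, H3K4me3 of SPARC was compared with 11636 start peaks whose mean normalized count reached 50, as log2(CPM + 1). The 5 most alike were those of PPFIA3 (shared with C19orf73), DOC2A, PRKG1, LRP4 and MACF1, with Pearson r from 0.991 to 0.995 over the 6 libraries. The libraries of a line share that line, so these values describe the pattern and carry no test. PPFIA3 went from 37.5 and 42.7 CPM in Par to 73.7 and 82.3 CPM in LM2, with 57.8 and 57.6 CPM in BrM2. PRKG1 went from 12.9 and 15.3 CPM in Par to 43.6 and 44.4 CPM in LM2, with 24.2 and 28.0 CPM in BrM2. The order of the lines was that of SPARC, while both genes were already well marked in Par.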

How the data were processed

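ChIP-seq of H3K4me3 and H3K27ac was analysed in MDA-MB-231 Par, LM2 and BrM2 cells, with 2 replicates per line and mark (12 libraries). The 3 input libraries among the 15 samples are not analysed here. Sample titles gave the line, mark and replicate number. Formaldehyde fixation (1%) lasted 10 min per the labels, and longer in the study's methods.

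The authors aligned reads to hg19 with Bowtie2 (2.3.4.3), marked duplicates with Picard (2.18.21), filtered with SAMtools, merged the 6 libraries of each mark and called broad consensus peaks with MACS2 (2.1.2). Versions are those of the submitters' processing notes. The deposited values are raw counts of reads in each consensus peak, which the authors obtained using featureCounts 1.6.0 from reads extended by 150 bases at the 3′ end, with no normalization. Since peaks were called on pooled libraries, a region marked in 1 line only can be missed, and a gene with no peak has no value here.

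Peaks were annotated with protein-coding transcript starts of GENCODE release 44 lifted to hg19. Peaks were tested with the DESeq2 (1.42.0, R 4.3.3) Wald test, with the 6 libraries of a mark in one fit, cell line as the only term and 3 residual degrees of freedom. P-values were Benjamini-Hochberg adjusted over all peaks of a mark, and peaks with an adjusted p under 0.05 were called. Independent filtering used the DESeq2 default (alpha = 0.1), which replaced a first fit at alpha = 0.05 after member values had been seen. Errors are standard errors of the fit and intervals are 95% Wald intervals. Scripts were tested on simulated counts, with the required recovery lowered once, after H3K27ac had missed it. edgeR (4.0.16) was an alternative.

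Members and lists were chosen with earlier results of these data known. Named peaks were all H3K4me3 start peaks and, per gene, the H3K27ac peak nearest to a start, the one with the highest CPM, the one with the largest change among those whose mean normalized count reached 10, and up to 6 called ones. Of the lists, genes with a called H3K4me3 start peak were named, also up to 6. Motifs were exact letter matches on both strands.

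To check the pairing, the deviation of each library from its line mean was correlated over peaks with that of the library of equal number in another line. Pearson r was 0.683, 0.632 and 0.675 for H3K4me3 and 0.245, 0.32 and 0.271 for H3K27ac (Par with LM2, Par with BrM2, LM2 with BrM2). All exceed the limit of 0.1, so the numbers in the titles were taken to pair the libraries, and the fit that adds this number as a block (2 residual degrees of freedom) is given where it changes a call. No batch or day is named in the labels. The chi-square between replicates, per degree of freedom, ranged from 2.12 to 12.3, above counting noise.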

Additional observations from a re-analysis of the deposited data

Results flagged for a closer look

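Differences between LM2 and BrM2 were singled out at 6 peaks. With the replicate number as a block, H3K4me3 over the start of THBS1 (-0.40, DESeq2 adjusted p = 0.0206) and of CCN2 (-0.52, DESeq2 adjusted p = 0.0016) was lower in BrM2 than in LM2 on the log2 scale. In the same fit H3K27ac was higher in BrM2 than in LM2 at the CCN1 peaks 20.8 kb (0.68, DESeq2 adjusted p = 0.0169) and 45.9 kb downstream (0.75, DESeq2 adjusted p = 0.0118), and lower at the THBS2 peak 36.1 kb upstream (-1.21, DESeq2 adjusted p = 0.0371). This fit called 13.0% of all H3K4me3 peaks lower in BrM2 than in LM2, and 6.17% of all H3K27ac peaks in either direction. Without the block, 0 of these 5 differences passed.

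At 2 CCN1 peaks both LM2 libraries lay below and both BrM2 libraries above the Par libraries, and this pattern of opposite directions was not tested as such. Of all H3K27ac peaks, 18.3% had both LM2 libraries below both of Par, and 24.8% had both BrM2 libraries above. The share of peaks with both at once was not counted, so these CCN1 peaks cannot be called unusual. The CCN1 peaks are the one 45.9 kb downstream (0.75 for BrM2 over LM2) and the one 15.1 kb downstream (0.76, DESeq2 adjusted p = 0.311, and 0.178 with the block). Groups of 2 libraries were too small for a search for single outlying libraries.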

How the results depend on the processing

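Counts of called peaks among the 7 tested genes moved mainly with the replicate block. For H3K4me3, where the DESeq2 fit without a block called 0 in each comparison, the replicate block gave 2 for BrM2 over Par and 2 for BrM2 against LM2, and edgeR with the replicate block gave 1 for LM2 over Par, 4 for BrM2 over Par and 2 for BrM2 against LM2. For H3K27ac, where it called 3, 2 and 0, the replicate block gave 3 for BrM2 against LM2, and edgeR with the replicate block gave 10, 7 and 5. Of all H3K4me3 peaks, DESeq2 with the block called 14.4%, 17.7% and 22.0% in the 3 comparisons. edgeR with it called 26.2%, 33.3% and 38.6%. Of all H3K27ac peaks, these fits called 5.44%, 8.13% and 6.17%, and 13.2%, 15.9% and 12.5%. In DESeq2 the block changed no other call of a tested member. edgeR with the block called peaks of further genes. For BrM2 over Par these were SPOCK1 H3K4me3 and POSTN H3K27ac, both higher, and CCN1 H3K4me3 and CCN2 H3K27ac, both lower. A window of 50 kb in place of 100 kb left 1 call in LM2 and 0 in BrM2, since the SPOCK1 peaks and the THBS2 domain lie further out. Leaving out 1 library at a time gave 0 to 2 H3K27ac calls for LM2 over Par, 0 to 1 for BrM2 over Par, 0 for BrM2 against LM2, and 0 H3K4me3 calls in every comparison. A low-count filter, size factors from total counts, and 1 start per gene record moved no count. edgeR without a block gave 4 and 3 H3K27ac calls in LM2 and BrM2 over Par, where it called 5.14% and 6.88% of all peaks. Size factors within each chromosome gave 2 calls in LM2 in place of 3. Independent filtering at alpha = 0.05, an alternative chosen after seeing the data, gave 0, 0 and 0 calls for H3K4me3 and 3, 2 and 0 for H3K27ac, as in the DESeq2 fit without a block. Of the single peaks named, under all alternatives, 846 values kept their call or stayed within the error, 26 gained a call, 20 lost it and 5 moved. Small log2 fold changes could change sign. That of CCN2 H3K4me3 for LM2 over Par was -0.06 with all libraries and 0.29 without Par replicate 1. Depth limited the values most at peaks with few counts, such as those of SPOCK1 and SPP1.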
